A study of Mus musculus with 10 samples.

Results

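The genotypes were compared while the calcium signal was raised by a drug: mouse dendritic cells with and without CD14, both given LPS plus thapsigargin. The members are 4 of the 10 arrays of the series, chosen by their treatment label: wild type at 48 h and 60 h, and CD14-deficient at 48 h and 60 h. Each wild-type array was set against the CD14-deficient array of the same time, which gives 2 pairs. Bone marrow came from C57BL/6 mice and from Cd14-/- C57BL/6 mice, both 6 to 8 weeks old per the labels, and was grown in medium with GM-CSF until more than 90% of the cells were CD11c positive. All 4 cultures received smooth LPS at 1 µg/ml together with 50 nM thapsigargin. The series also holds, for each genotype, 2 arrays of LPS alone at 48 and 60 h and 1 unstimulated array. None of its 10 arrays is of thapsigargin alone. Each condition is a single array, and the labels do not say whether the 2 times came from the same mice or cultures.

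CD14 is a surface protein that binds LPS and hands it to TLR4 and MD-2. In dendritic cells CD14 also starts a calcium influx of its own, through Src-family kinases and phospholipase C gamma 2, and calcium activates calcineurin, which sends NFAT transcription factors to the nucleus. Thapsigargin blocks the SERCA pumps of the endoplasmic reticulum, so that calcium leaks from the store and enters from outside without CD14; it also triggers the unfolded protein response. CD14 further helps TLR4 to be taken up into endosomes, from where TRIF signalling induces type I interferon. The comparison asks which differences between the genotypes were still present when calcium was raised in both.

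With thapsigargin, 41 of 7474 tested genes had at least 2 times the signal in wild type at both times (0.549% of tested genes), and 30 had at least 2 times the signal in CD14-deficient cells (0.401%). Only 3 genes were 2-fold apart in opposite directions at 48 and 60 h (0.0401%). The genes higher in wild type included Csf3, Tnf, Il2, the chemokines Ccl2, Ccl7, Ccl8, Cxcl9 and Cxcl10 and the GTPase Irgm2. Those lower included Camk4, Ppbp, Klrb1b, Il12rb2, Pik3cg and Fabp4. In bulk RNA, fewer cells making a transcript and less of it per cell cannot be told apart. With LPS alone 164 genes were 2-fold higher at both times (2.19%) and 247 lower (3.3%), with 108 in opposite directions (1.45%). Over all tested genes the SD of the genotype difference, averaged over the times, was 0.366 log2 units with thapsigargin, 0.751 with LPS alone and 0.319 in unstimulated cells, where each genotype has 1 array. The genotype differences at 48 and 60 h correlated across genes with r = 0.652 with thapsigargin and r = 0.325 with LPS alone; genes are not independent replicates.

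**Figure D1:**
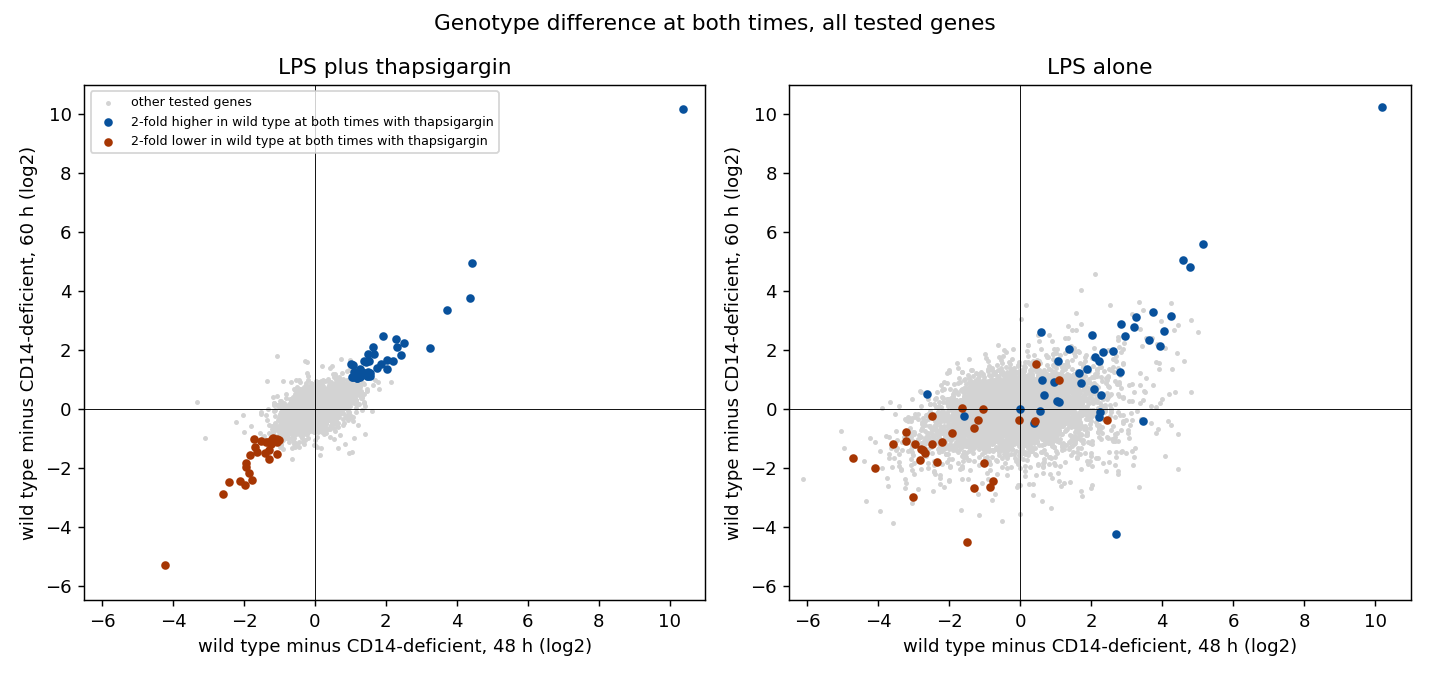
Genotype difference (wild type minus CD14-deficient, log2 of the floored signal) at 48 h on the horizontal axis and at 60 h on the vertical axis, for LPS plus thapsigargin on the left and LPS alone on the right; each point is 1 of 7474 tested genes. Blue and brown points are the 41 genes 2-fold higher and the 30 genes 2-fold lower at both times with thapsigargin, so their position on the left is set by that choice, and on the right they spread widely.

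Values are MAS5 signals, scaled to a common trimmed mean; a signal under 13.4, the pooled 25th percentile, was raised to that floor before log2 was taken. Depth is not a property of arrays, and their number limits the precision. Per the labels, the RNA integrity numbers of the 4 cultures were 9 and 10 in wild type and 9.2 and 8.4 in CD14-deficient cells, and the labelled cRNA obtained was 30.3 and 37.8 µg against 23.4 and 20.01 µg. The cRNA yield of these 4 thus moved with genotype, and its part in the differences below was not tested. With LPS alone the integrity numbers were 9.4 and 8.6 in wild type and 10 and 8.6 in CD14-deficient cells. The cRNA there was 31.2 and 19 µg against 15 and 44.6 µg. A control probe set for 18S ribosomal RNA gave 2781 and 395.8 against 269.5 and 6642 with LPS alone, and 1426 to 2370 with thapsigargin. The part of this in the wider differences with LPS alone was not tested. The spread between the times was of the same order as the difference between the genotypes: 115 genes were 2-fold apart between the wild-type arrays at 48 and 60 h and 189 between the CD14-deficient arrays, against 206 between the genotypes at 48 h and 131 at 60 h.

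The limma test over all 10 arrays called 2 genes higher in wild type with thapsigargin (0.0268%), Cd14 and Erdr1, and 0 lower (0%); 329 genes had an unadjusted p under 0.05. Its error estimate includes the 2 CD14-deficient LPS arrays, and without both of them limma called 32 genes higher and 16 lower. Fitted to the 4 thapsigargin arrays alone, with time as a term, limma called 243 genes higher (3.25%) and 183 lower (2.45%), among them all 71 genes that were 2-fold apart at both times. That count rests on 1 residual degree of freedom and on a prior spread that follows the signal level. Without this intensity trend, an alternative chosen after seeing the data, the 4-array fit called 4 genes higher (Cd14, Erdr1, Rpgrip1 and Sncg) and 1 lower (Bex1). Of the 71 genes, 5 passed the filter on the 2 arrays of their higher group only, Il2, Sh3yl1 and Sncg in wild type and Cdkn1c and Clgn in CD14-deficient cells; they had to differ in order to be tested, so their calls are no support. On the deposited values without scaling, the 4-array fit called 180 higher and 229 lower. In what follows, "called" refers to an adjusted p under 0.05 in the 4-array fit with trend, and errors after ± are standard errors of the log2 difference from the 10-array fit; neither covers the spread between mice or cultures.

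Cd14 itself gave signals of 17730 and 15540 in wild type and of 2.22 and 1.85 in CD14-deficient cells with thapsigargin, the latter under the floor. With the CD14-deficient signals raised to the floor, the wild-type signal was at least 1240-fold higher as the mean of both times (log2 differences of 10.37 at 48 h and 10.18 at 60 h), as the labels of the 4 arrays have it (limma adjusted p = 1.91e-05, 10-array fit). In wild-type cells Cd14 stood at 15600 and 16190 with LPS alone, close to its levels with thapsigargin. The other genes of LPS recognition were close: Tlr4 differed by -0.06 log2 units and Ly96, which encodes MD-2, by 0.03. Of the 11 tested genes of the list of LPS recognition and signalling, 2 were called higher, Cd14 and the adaptor Tirap (0.68), and 1 lower, Ly86 (-0.53), which encodes MD-1. Over all tested genes 3.25% were called higher and 2.45% lower.

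Csf3 and Tnf, both known NFAT or NF-kappaB targets, were among the cytokine genes that remained apart. Csf3, the granulocyte colony stimulating factor, gave 1379 at 48 h and 3995 at 60 h in wild type against 362 and 726 in CD14-deficient cells. Both genotypes were higher at 60 h than at 48 h, and both wild-type signals lay above both CD14-deficient ones, by 2.19 ± 0.23 log2 units on average (limma adjusted p = 0.0886 with 10 arrays, 0.0101 with 4). Tnf, the tumour necrosis factor, gave 1197 and 1300 in wild type against 376 and 358, a difference of 1.76 ± 0.38. The 2 wild-type values lay close together and far above both others (adjusted p = 0.608 with 10 arrays and 0.0101 with 4 in limma). Unstimulated, Tnf gave 788.5 in wild type and 782.6 in CD14-deficient cells, so the CD14-deficient signals with thapsigargin lay under that level.

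Il2, the T cell growth factor that dendritic cells make through calcineurin and NFAT, passed the filter level of 99.2 on the wild-type thapsigargin arrays and on none of the other 8. Its signal was 127 and 115 in wild-type cells with thapsigargin, 1.92 and 27.5 in CD14-deficient cells with thapsigargin, and between 0.756 and 1.41 on the other 6 arrays. The log2 difference, with the 48 h CD14-deficient value raised to the floor, was 3.24 at 48 h and 2.07 at 60 h. Since Il2 was tested only because it was high in that group, the difference is given as a description, with no test. The CD14-deficient signal at 60 h lay between the floor and the filter level. Of the 11 T and NK cell markers measured on the same 4 arrays, Cd3d, Cd3g, Cd4 and Ncr1 were under the floor on all 4, and Cd3e passed it on 1, at 16.3. Thy1 was higher in wild type at both times, with 126 and 102 against 68.4 and 58.7, while Zap70 ranged from 158 to 239 and Klrd1 from 126 to 203. The part of such cells in the Il2 signal was not tested.

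The promoters of Il2 and Tnf are shown because both genes are textbook NFAT targets and both stood apart with calcium raised in both genotypes. The 200 bases before the annotated start are given 5′ to 3′ on the gene's strand, from RefSeq's mouse build GRCm38.p6 (chr3:37125955-37126154, minus strand for Il2, chr17:35202008-35202207, minus strand for Tnf). Capitals mark the NFAT core GGAAA on either strand (TTTCC on the strand shown), found by a text search.
Il2: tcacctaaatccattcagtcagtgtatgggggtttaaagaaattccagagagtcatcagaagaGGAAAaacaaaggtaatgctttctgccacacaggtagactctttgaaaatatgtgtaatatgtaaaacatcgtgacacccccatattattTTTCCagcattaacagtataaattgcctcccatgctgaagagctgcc
Tnf: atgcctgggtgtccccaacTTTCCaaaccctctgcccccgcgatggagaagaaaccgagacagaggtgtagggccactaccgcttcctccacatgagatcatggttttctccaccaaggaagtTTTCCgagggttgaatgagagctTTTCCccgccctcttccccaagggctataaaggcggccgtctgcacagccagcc
The Il2 window holds 2 matches and the Tnf window 3. The core is short and common: 47.6% of 32851 promoter windows of this length hold it on either strand. Among the 41 genes higher in wild type, 32 have a window in the table and 16 of these hold the core (50%); among the 30 lower genes, 13 of 21 do (61.9%). Tested genes as a whole stand at 46.2%. A match describes these letters and not a bound site. Csf3, Ccl2 and Ccl7 are named without a sequence.

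**Figure D2:**
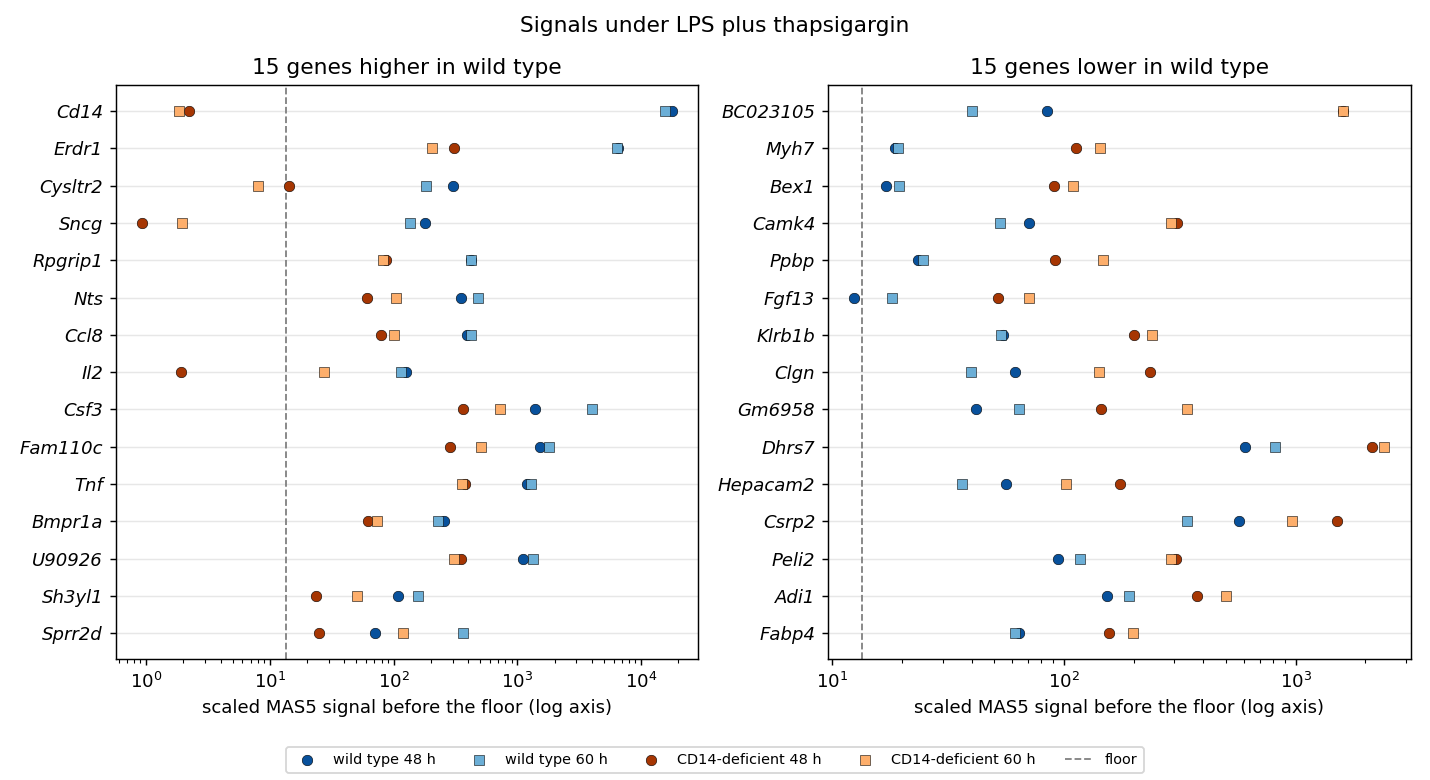
Scaled MAS5 signal (log axis, before the floor) of the 15 genes with the largest difference in each direction, ranked by the smaller of their 48 and 60 h log2 differences; blue points are wild type, brown points CD14-deficient, circles 48 h and squares 60 h, each 1 array, and the dashed line is the floor of 13.4. In every row both points of one genotype lie on one side at each time; the rows were chosen for this, and Cd14 and Sncg lie under the floor on both CD14-deficient arrays.

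The calcium and NFAT lists split into the machinery and its targets. Of the 17 tested genes of the calcium, calcineurin and NFAT machinery 0 were called by limma with 4 or 10 arrays (1 at an unadjusted p under 0.05 with 10 arrays, 7 with 4), and their median difference was 0.06 (-0.01 without scaling), beside 0.03 over all tested genes; Nfatc1 differed by 0.12, Plcg2, the phospholipase of the CD14 calcium route, by 0.26 and Atp2a2, which encodes the SERCA2 pump that thapsigargin blocks, by 0.32. Of the 14 tested genes known to be induced by NFAT or calcium, 5 were called higher (Egr1, Ptges, Il10, Tnf and Il2), beside 3.25% of all tested genes. The call of Il2 is no support, since it passed the filter on its higher group only. Called lower was 1, beside 2.45% of all tested genes: Ptger4 (-0.77), a prostaglandin E2 receptor. The median of the 14, Il2 included, was 0.55 with thapsigargin and 0.98 with LPS alone. With thapsigargin it was 0.19 over the 10 genes above 99.2 on at least 5 of the 10 arrays (a strict filter). Over every probe set it was 0.23. Ptges, the terminal synthase of prostaglandin E2, gave 1516 and 2306 in wild type against 630 and 900, a difference of 1.31 ± 0.33. Il10, the anti-inflammatory cytokine, gave 72.9 and 185 against 36.8 and 58.5, a difference of 1.32 ± 0.58. Rcan1, the calcineurin inhibitor that NFAT induces, was not called: 966 and 1476 in wild type against 540 and 1297.

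The 4 apoptosis genes the study is known for were not called with thapsigargin. They were listed because the study followed them up, so their course in its own data is a description and no independent support. Nr4a1, which encodes the nuclear receptor Nur77, differed by -0.45 ± 0.46 with thapsigargin and by 2.41 with LPS alone. Gadd45g, a growth arrest gene, gave 3267 and 3447 in wild type against 3333 and 4154 in CD14-deficient cells with thapsigargin, whereas the CD14-deficient signals with LPS alone were 256 and 507. Ddit3, which encodes CHOP, a death-promoting factor of the stress response, gave 5645 and 4816 against 5108 and 4915; the CD14-deficient signals with LPS alone were 479 and 1102. Tia1 differed by 0.13 ± 0.47. So the levels of Gadd45g and Ddit3 in the 2 genotypes overlapped once thapsigargin was present, and 0 of the 4 genes was called by limma with 4 or 10 arrays (0 at an unadjusted p under 0.05 with 10 arrays, 1 with 4). Of 8 tested proapoptotic Bcl2 family genes 1 was called, Bnip3 (0.38), and of 14 caspase and execution genes 1, Casp8 (0.41). Over all tested genes 3.25% were called higher.

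The unfolded protein response, which thapsigargin itself evokes, differed by less than 2-fold in each gene tested. Of 34 tested genes 22 were higher in wild type at both times, beside 38.7% of all tested genes (18 on values without scaling). Called higher were 5, beside 3.25% of all tested genes (Pdia6, Dnajb11, Sdf2l1, Pdia4 and Syvn1, all of folding or disposal in the endoplasmic reticulum, by 0.43 to 0.61) and 1 was called lower, Sec61b (-0.44), a subunit of the translocon. The median was 0.16 (0.09 without scaling). Hspa5, the master chaperone BiP, differed by 0.10, Atf4 by 0.06 and Xbp1 by 0.06. With LPS alone the same list had a median of 0.53.

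Monocyte-attracting chemokines from a single gene cluster on chromosome 11 were among the differences that remained. Ccl8 gave 393 and 426 in wild type against 79.8 and 100.2 in CD14-deficient cells, a difference of 2.19 ± 0.32. Ccl7 gave 1416 and 1710 against 518 and 568, a difference of 1.52 ± 0.34. Ccl2 gave 7167 and 8056 against 3154 and 3861, a difference of 1.12 ± 0.17. In each of the 3 genes both wild-type signals lay above both CD14-deficient ones. Their gap was smaller than with LPS alone, where the differences were 3.00 for Ccl8, 4.83 for Ccl7 and 3.52 for Ccl2. For Ccl7 the CD14-deficient cells gave 62.0 and 119 with LPS alone and 518 and 568 with thapsigargin added. Unstimulated, Ccl7 gave 1919 in wild type and 895 in CD14-deficient cells, and Ccl2 gave 8854 and 6312. In both genotypes these 2 genes were thus lower with thapsigargin than unstimulated, and Ccl7 already differed by 1.10 log2 units there. Ccl8 was higher with thapsigargin than unstimulated, where it gave 19.7 and 30.1. Ccl3 (0.65) and Ccl4 (0.95) were also called higher, while Ccl5 (-0.08), Ccl9 (0.06) and Ccl22 (0.03) were not called; in all, 5 of 12 such chemokines were called higher and 0 lower, beside 3.25% and 2.45% of all tested genes.

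Interferon response genes were higher in wild type as a group, by less than 2-fold each for most. Of 37 tested genes of the type I interferon and JAK-STAT list, 34 were higher at both times, beside 38.7% of all tested genes. Of these 37 genes 25 were called higher and 1 lower, beside 3.25% and 2.45% of all tested genes. The median difference was 0.64 beside 0.03 over all tested genes. Of the 9 tested interferon-inducible GTPases, which attack vacuoles of intracellular microbes, all 9 were higher at both times and 8 were called, with a median of 0.88. The medians were 0.58 and 0.81 without scaling and 0.61 and 0.87 after quantile normalization. The 2 lists share genes: together they hold 44 tested genes, of which 41 were higher at both times.

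Irgm2, an immunity-related GTPase, gave 1644 and 1463 in wild type against 591 and 667 in CD14-deficient cells, a difference of 1.30 ± 0.19 (limma adjusted p = 0.265 with 10 arrays, 0.0156 with 4). Cxcl10, a T cell attracting chemokine induced by interferons, gave 1331 and 989 against 484 and 428, a difference of 1.33 ± 0.21. Cxcl9, its neighbour and relative, gave 1091 and 499 against 435 and 208. For all 3 genes both wild-type signals lay above both CD14-deficient ones.

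Some interferon genes that were far apart between the genotypes with LPS alone were less so with thapsigargin. The gap was smaller with thapsigargin for 27 of the 37 genes of the type I interferon list and for 5 of the 9 GTPases. Over all tested genes it was smaller for 5551 of 7474, so the narrowing was not particular to these lists. Ifit3, an interferon-induced repeat protein, gave 5862 and 4469 against 2906 and 2949 with thapsigargin and differed by 0.81, beside 3.51 with LPS alone. Rsad2, which encodes the antiviral enzyme viperin, gave 19680 and 15420 against 13730 and 12990 and was not called (0.38, beside 3.08). Irf1, an interferon-induced transcription factor, differed by 0.75 with thapsigargin and by -0.04 with LPS alone. Irf8, a factor of the dendritic cell lineage, was the gene called lower, with 6924 and 6068 in wild type against 9282 and 7679. The difference was larger at 48 h than at 60 h for 37 of the 44 genes, beside 48.7% of all tested genes.

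**Figure D3:**
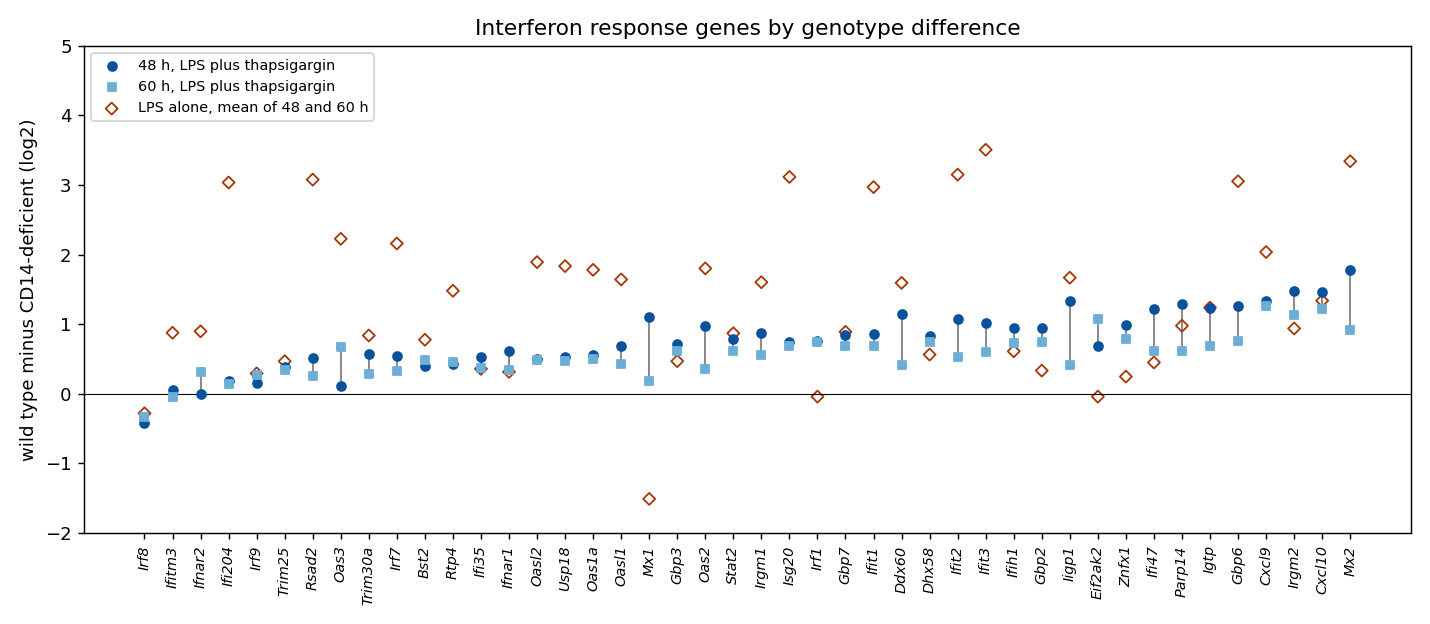
Genotype difference (wild type minus CD14-deficient, log2) of the 44 tested interferon response genes, ordered by their mean with thapsigargin; filled circles are 48 h and squares 60 h with LPS plus thapsigargin, each from 1 pair of arrays, and open diamonds are the mean of both times with LPS alone. With thapsigargin 41 genes lie above 0 at both times, and the highest mean is 1.35; with LPS alone the diamonds spread further, in both directions.

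Promoters of 4 interferon genes are shown because the group was higher in wild type and 14 of its 34 genes with a window hold a known element. They are the 4 with the largest difference among those whose window holds an interferon-stimulated element, searched as GAAA, any 2 bases (NN) and GAAA, on either strand. The windows are again the 200 bases before the start in GRCm38.p6, for Irgm2 (chr11:58214777-58214976, plus strand), Igtp (chr11:58199356-58199555, plus strand), Gbp2 (chr3:142620463-142620662, plus strand) and Ifit3 (chr19:34583329-34583528, plus strand), with the element in capitals; an element preceded by G overlaps an NFAT core.
Irgm2: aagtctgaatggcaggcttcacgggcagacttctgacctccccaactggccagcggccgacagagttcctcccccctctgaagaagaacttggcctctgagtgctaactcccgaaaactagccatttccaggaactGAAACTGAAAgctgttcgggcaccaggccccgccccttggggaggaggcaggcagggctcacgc
Igtp: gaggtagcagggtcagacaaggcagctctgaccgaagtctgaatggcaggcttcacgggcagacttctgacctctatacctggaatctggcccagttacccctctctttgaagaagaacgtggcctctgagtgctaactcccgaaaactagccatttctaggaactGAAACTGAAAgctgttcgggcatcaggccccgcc
Gbp2: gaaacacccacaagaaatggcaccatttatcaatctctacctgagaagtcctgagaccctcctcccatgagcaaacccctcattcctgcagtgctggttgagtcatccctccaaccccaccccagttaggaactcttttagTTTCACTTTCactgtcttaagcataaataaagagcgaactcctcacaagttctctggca
Ifit3: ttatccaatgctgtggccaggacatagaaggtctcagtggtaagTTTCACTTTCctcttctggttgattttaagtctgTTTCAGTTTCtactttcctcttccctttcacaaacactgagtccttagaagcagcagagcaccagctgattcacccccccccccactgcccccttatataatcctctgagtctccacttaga
The element is in 2.27% of all promoter windows and in 14 of the 34 interferon genes that have one (41.2%). The median difference with thapsigargin was 0.74 for these 14 genes and 0.63 for the other 20. Of the 32 windows of genes 2-fold higher in wild type, 1 holds the element, and of the 21 of genes 2-fold lower, 0 do; the windows of Cxcl9 and Cxcl10 do not hold these letters.

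Some other genes of host defence were also higher in wild type. Of 7 tested pattern recognition receptors outside LPS recognition 1 was called higher, and 0 were 2-fold apart at both times. Nlrp3, the inflammasome sensor, gave 1935 and 2525 in wild type against 796 and 1295 (1.12 ± 0.21). Of 8 tested enzymes of tryptophan, arginine, itaconate and nitric oxide metabolism 4 were called higher, beside 3.25% of all tested genes. They were Nos2 (0.87), the inducible nitric oxide synthase, Arg2 (0.66), Acod1 (0.63), which makes itaconate, and Hdc (0.54), which makes histamine. Of 10 tested matrix metalloproteases and inhibitors 4 were called higher, beside the same 3.25%. Among these was Mmp8 with 1759 and 3999 in wild type against 602 and 1847. Hamp, the iron hormone hepcidin, gave 1824 and 1886 against 907 and 654; Hamp and Hamp2 are near-identical neighbours, so their probe sets may share transcripts. Inflammatory cytokines were mixed: 4 of 15 were called higher (Il2, Tnf, Il10 and Il1a), beside 3.25% of all tested genes. Of these, Il2 passed the filter on its higher group only, so its call is no support. Il1b (0.15), Il6 (0.17) and Il12b (-0.26) were not called.

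Most genes of antigen presentation and dendritic cell identity were not called, and several of those called were lower in wild type. Of 10 tested genes of MHC class II presentation, 8 were lower in wild type at both times, beside 31.1% of all tested genes, but by small amounts (median -0.25) and with 1 called, H2-Oa (-1.05), which encodes a chain of the inhibitor H2-O. MHC class I presentation went the other way: of 11 tested genes 7 were higher in wild type at both times and 2 lower. The shares of all tested genes were 38.7% and 31.1%. The median of the 11 was 0.22, with 1 called higher and 0 lower, beside 3.25% and 2.45% of all tested genes. Of 17 tested genes of costimulation and maturation 1 was called higher, Slamf1 (0.88), beside 3.25% of all tested genes. Called lower was 1, Pdcd1lg2 (-0.82), which encodes PD-L2, beside 2.45%. Cd86 (-0.15), Cd83 (-0.04) and Ccr7 (-0.05) were not called. Of 15 tested dendritic cell markers 3 were called lower, beside 2.45% of all tested genes, and 0 higher: Dpp4 (-1.06), Batf3 (-0.67) and Irf8. Of 26 tested cell division genes 0 were called by limma with 4 or 10 arrays (0 at an unadjusted p under 0.05 with 10 arrays, 3 with 4). Their median was -0.18 (-0.11 with a pseudocount of 16 in place of the floor). With LPS alone the median was -1.60 and 15 of the 26 were 2-fold lower in wild type at both times. Only 9 of the 26 passed the filter when it used the thapsigargin arrays alone, with a median of -0.2. The others were above 99.2 on at most 1 of those arrays.

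**Figure D4:**
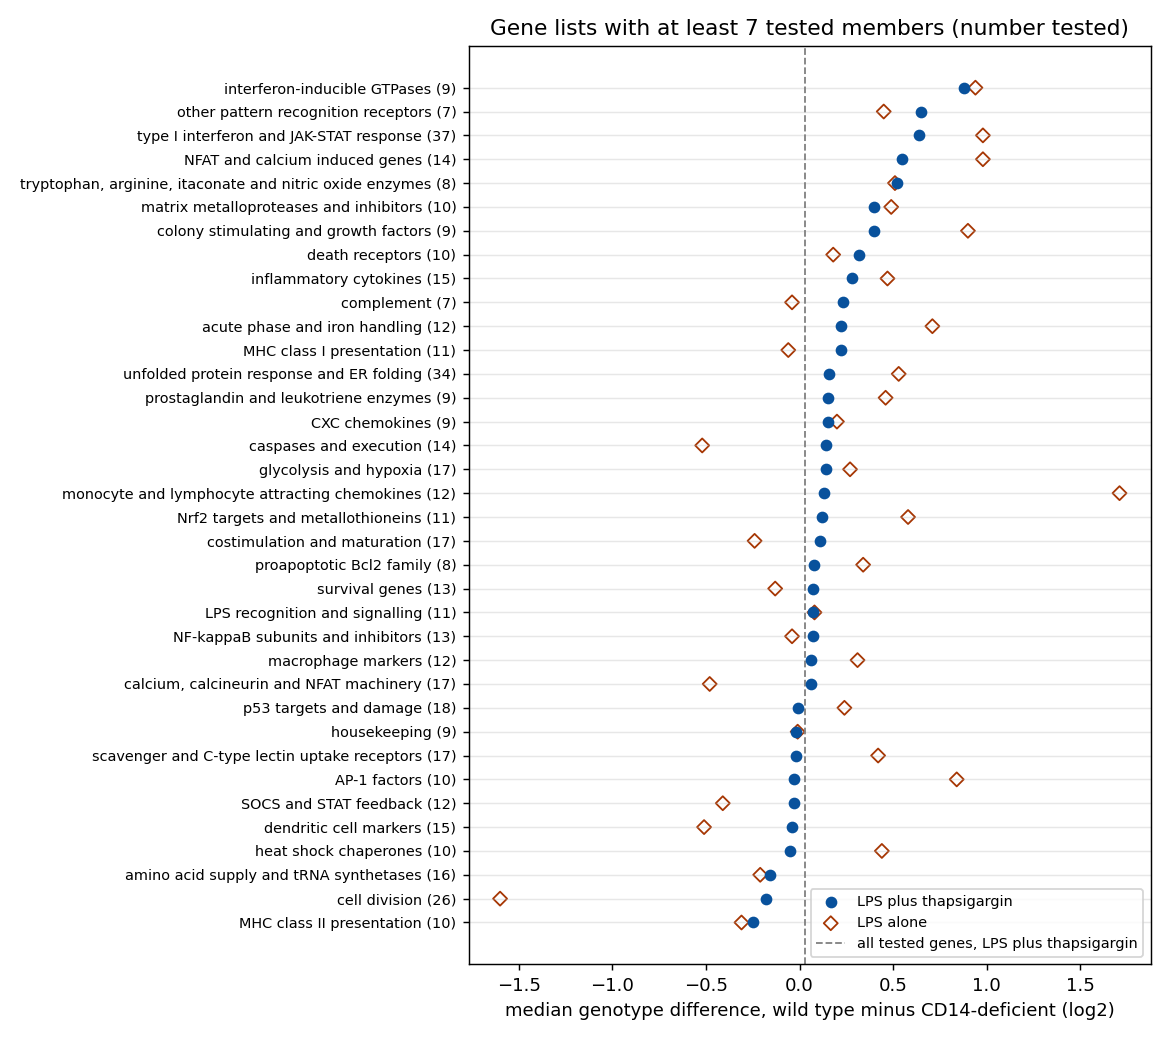
Median genotype difference (wild type minus CD14-deficient, log2) of each gene list with at least 7 tested members, number tested in brackets; filled blue points are LPS plus thapsigargin, open diamonds LPS alone, each the mean of 48 and 60 h, and the dashed line is the median of all tested genes with thapsigargin, 0.03. The interferon-inducible GTPases stand highest with thapsigargin at 0.88, and cell division moves from -1.60 with LPS alone to -0.18. Only 9 of the 26 cell division genes passed the filter when it used the thapsigargin arrays alone.

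Cell type markers were compared as summed signals. The 16 dendritic cell markers summed to 46030 and 46410 in wild type and 49250 and 48380 in CD14-deficient cells, with Itgax, which encodes CD11c, at 1017 and 776 against 983 and 750; Xcr1 was under the floor on all 4 arrays. The 14 macrophage markers ranged from 16370 to 21000 and overlapped between the genotypes. The 12 neutrophil markers summed to 6331 and 8190 in wild type against 5424 and 5131, mostly from Lcn2 and Mmp8, while the neutrophil granule genes Mpo, Elane and Ngp stayed at or under 42.1 on all 4 arrays. The 11 mast cell and basophil markers summed to 1802 and 2017 against 1552 and 1490, mostly from Hdc; Kit went the other way, with 148 and 284 against 306 and 367, Gata2 ranged from 110 to 205, and the defining Fcer1a, Cma1 and Mcpt4 were under the floor. The 11 T and NK cell markers summed to 550.1 and 552.3 against 509.5 and 482, mostly from Zap70, Klrd1 and Thy1. The 7 B cell markers summed to 2517 and 3107 against 2373 and 2591, mostly from Blnk. The neutrophil, mast cell and T and NK cell sums were higher in wild type and the dendritic cell sum lower, each without overlap. The macrophage and B cell sums were higher in wild type within each time, with overlap across the times. The erythroid and stromal sums were lower in wild type at 48 h and higher at 60 h. The part of these shifts in the differences between the genotypes was not tested.

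Some genes lower in wild type had roles in signalling. Camk4, a calcium and calmodulin dependent kinase, gave 71.0 and 52.8 in wild type against 307 and 291 in CD14-deficient cells, a difference of -2.29 ± 0.37 (limma adjusted p = 0.315 with 10 arrays, 0.0133 with 4). Klrb1b, an inhibitory lectin-like receptor of NK cells, gave 54.8 and 53.6 against 200.1 and 241, and Clec2i, a lectin gene near it, 107 and 138 against 226 and 280. Pik3cg, the gamma isoform of phosphoinositide 3-kinase, gave 411 and 619 against 1339 and 1264. For these 4 genes both wild-type signals lay under both CD14-deficient ones. Peli2, a ubiquitin ligase of Toll-like receptor signalling, gave 94.4 and 118 against 304 and 289.

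The largest difference in this direction was that of BC023105, with 84.9 and 40.1 in wild type against 1599 and 1598 (-4.78 ± 0.76). Ppbp, a platelet chemokine, gave 23.4 and 24.7 against 91.9 and 148. Fabp4, a fatty acid binding protein, gave 64.0 and 61.5 against 156 and 198, all far under the unstimulated signals of 4382 and 5694. Il12rb2, a chain of the IL-12 receptor, gave 225 and 145 in wild type against 505 and 289. Cdkn1c, the cell cycle inhibitor p57, gave 77.1 and 98.6 against 200.0 and 218. Of the 71 genes 7 had at least 1 of the 4 arrays at the floor: Cd14, Cysltr2, Sncg and Il2 among those higher, and E2f8, Fgf13 and Iglv1 among those lower. E2f8, a cell cycle repressor, was at the floor on both wild-type arrays.

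Differences seen with LPS alone were mostly not kept when thapsigargin was added. Of the 411 genes 2-fold apart at both times with LPS alone, 39 (9.49%) were 2-fold apart in the same direction at both times with thapsigargin, and 0 in the opposite direction. Of the 164 genes higher in wild type 23 were kept (14%), beside 0.549% of all tested genes 2-fold higher with thapsigargin. Of the 247 lower 16 were kept (6.48%), beside 0.401% of all tested genes 2-fold lower with thapsigargin. The 39 are 54.9% of the 71 genes 2-fold apart with thapsigargin. The other way round, 227 of the 411 (55.2%) were under 1.5-fold at both times with thapsigargin. The share of all tested genes under 1.5-fold was not counted. Some of the 227, such as Ube2c, Ptgis, Retnla, Adgre4 and Ccl24, were under the floor on every thapsigargin array, so the floor sets their gap there. The median gap of all 411 was 1.78 log2 units with LPS alone and 0.25 in the same direction with thapsigargin. The 411 genes were chosen for their gap with LPS alone, so its size there is set by that choice.

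The share kept depends on whether the LPS genes had to be 2-fold apart at both times or at a single time. Chosen at 60 h alone, 957 genes were 2-fold apart with LPS and 42 of them were kept (4.39%); chosen at 48 h alone, 2206 were and 55 were kept (2.49%). The difference of differences between the treatments was also tested: limma with 10 arrays called 0 of 7474 genes (0%), with 994 at an unadjusted p under 0.05. The same test called 381 genes when the 48 h array of CD14-deficient LPS cells was left out and 1899 when their 60 h array was, so a gene named here as kept or not kept is described by its values and not by that test.

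Among those kept, Csf3 differed by 4.79 with LPS alone and by 2.19 with thapsigargin, and Ptges by 3.34 and 1.31. Nts, the neuropeptide neurotensin, gave 349 and 483 in wild type against 61.1 and 104 with thapsigargin, and differed by 3.20 with LPS alone and by 2.37 with thapsigargin. Cysltr2, a receptor for cysteinyl leukotrienes, gave 300.0 and 183 against 14.4 and 7.99, with a difference of 3.71 with LPS alone and 4.08 with thapsigargin. In Csf3, Ptges and Nts the gap was smaller with thapsigargin. For Cysltr2 the CD14-deficient signals lay at or near the floor with both treatments, so the sizes of its gaps cannot be set against each other.

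Genes apart with LPS alone and under 1.5-fold apart with thapsigargin took different courses. Hspa1b, an inducible Hsp70, gave 1683 and 3933 in wild type against 164 and 321 with LPS alone, and 929 and 1678 against 780 and 2360 with thapsigargin. Ms4a4c gave 5033 and 2077 against 232 and 285 with LPS alone, and 4068 and 2860 against 3400 and 2455 with thapsigargin. Dusp10, a phosphatase of stress kinases, gave 424 and 505 against 73.8 and 43.7, and 418 and 492 against 299 and 365. In these 3 the CD14-deficient signal was higher with thapsigargin than without, while the wild-type signals of the 2 treatments overlapped or were lower.

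Ccl24, an eosinophil chemokine, took the other course: 148 and 138 in wild type with LPS alone and under the floor on all 4 thapsigargin arrays. On the lower side, the cell cycle genes Ccna2 and Rrm2 gave 197 and 244, and 303 and 290, in CD14-deficient cells with LPS alone and were between 23.0 and 39.3 on all 4 thapsigargin arrays. Ube2c, a ubiquitin-conjugating enzyme of mitosis, was under the floor on those 4 arrays, at 159 and 198 in CD14-deficient cells with LPS alone and at 1312 and 2034 in unstimulated cells.

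By the rule of 2-fold at both times with thapsigargin and under 1.5-fold at both times with LPS alone, 3 genes were higher in wild type, Il2, Sh3yl1 and Gramd3, and 2 lower, Adi1 and Il12rb2. Il2 and Sh3yl1 passed the filter on the wild-type thapsigargin arrays only, so their place here follows from the filter too. Sh3yl1 gave 109 and 158 in wild type against 23.7 and 50.7, and 55.0 and 71.4 against 37.6 and 74.6 with LPS alone. Gramd3 gave 148 and 224 against 71.2 and 105. Of the 71 genes 56 had the same sign at both times with LPS alone.

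A set of 13 genes was 2-fold apart in 1 direction in all 5 matched pairs of the series (0.174%), unstimulated cells included. They were Cd14, Erdr1, Rpgrip1, U90926, Wdfy1, Ghitm, Ccl7 and Rhou on the higher side and BC023105, Cdk5rap1, Dhrs7, Gm6958 and Klrb1b on the lower. Erdr1, erythroid differentiation regulator 1, gave 6519 and 6365 in wild type against 305 and 205 with thapsigargin and 4239 against 258 unstimulated (4.69 ± 0.24, limma adjusted p = 0.00425). It was read on a single probe set, of the x_at type, whose probes can match more than 1 transcript. Rpgrip1, a ciliary protein known from photoreceptors, gave 422 and 419 against 86.4 and 81.5, and 562.5 against 99.2 unstimulated. Dhrs7, a short-chain dehydrogenase, gave 603 and 815 against 2131 and 2407, and 756 against 1945 unstimulated. Unstimulated, the log2 differences of Erdr1, Rpgrip1 and Dhrs7 were 4.04, 2.50 and -1.36, beside 4.69, 2.33 and -1.69 with thapsigargin. Of the 71 genes 21 were also 2-fold apart the same way in unstimulated cells, 13 higher and 8 lower; of all tested genes, 0.549% were 2-fold higher and 0.776% 2-fold lower there.

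The genes 2-fold apart with thapsigargin were unevenly spread over the chromosomes, by the RefSeq annotation of GRCm38.p6. Chromosome 14 held 10 of its 250 tested genes (4%) and chromosome 12 held 7 of 245 (2.86%), beside 54 of 6969 elsewhere (0.775%). Both chromosomes were singled out after their values were seen. Unstimulated cells showed 12 genes 2-fold apart on chromosome 14 (4.8%) and 5 on chromosome 12 (2.04%), beside 1.16% elsewhere; with LPS alone chromosomes 12 and 14 together held 6.87% and the others 5.41%. Chromosome 18, which carries Cd14, held 4 of 185 (2.16%): Cd14, Camk4, Gramd3 and BC023105. Unstimulated, 7 of its tested genes were 2-fold apart (3.78%), a higher share than on chromosome 12. With LPS alone 9 were (4.86%). Chromosome 18 is counted in the shares given above for the other chromosomes. Among the 50 protein-coding genes on each side of Cd14, 36 were tested, and 0 were 2-fold apart at both times. Called higher was 1, Egr1, beside 3.25% of all tested genes. Camk4 lay just outside this window, with 52 protein-coding genes between it and Cd14.

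Within these chromosomes several lay next to each other. Sh3yl1 and Fam110c had 0 protein-coding genes between them, Adi1 lay 10 genes before and Pik3cg 11 after. Sncg, which encodes gamma-synuclein, and Bmpr1a, a receptor for bone morphogenetic proteins, had 1 gene between them, and Ghitm, a mitochondrial inner membrane protein, lay 13 further, of which 1 was tested. Fam110c and Sh3yl1 were both higher in wild type, and the probe sets of Adi1 disagreed. Fam110c gave 1536 and 1793 in wild type against 284 and 509, Sncg 178 and 136 against 0.93 and 1.94, so at least 11.6-fold as the mean of both times (log2 differences of 3.73 and 3.34 from the floor), and Bmpr1a 255 and 231 against 62.5 and 73.0. Chemokine clusters gave other neighbours: Ccl2 and Ccl7 had 0 genes between them, and Cxcl9 and Cxcl10 had 1.

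**Figure D5:**
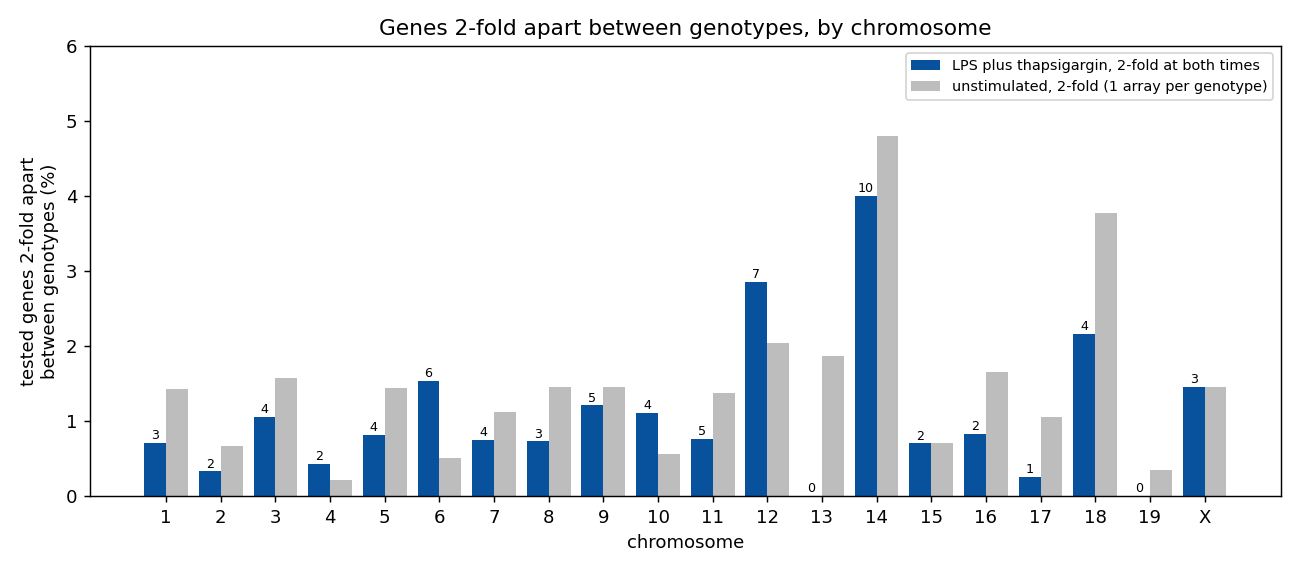
Share of tested genes on each chromosome that were at least 2-fold apart between the genotypes, in percent; blue bars are LPS plus thapsigargin at both times, with the number of genes above, and grey bars unstimulated cells, from 1 array per genotype. Chromosome 14 has the tallest bars of both colours, at 4% and 4.8%.

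Probe sets of 1 gene did not always give the same difference. Of 26 further probe sets of the 71 genes above the filter, 23 had the same sign at both times and 14 were 2-fold the same way. Adi1, an enzyme of methionine salvage, was the clearest exception: its brightest probe set gave 153 and 191 in wild type against 375 and 500.3, while another gave 413 and 418 against 40.3 and 65.2 and one more 501 and 429 against 167 and 99.1. The first and last of these are of the x_at type, whose probes can match more than 1 transcript, and a direction for Adi1 is not settled. The second probe set of Efnb2 gave 95.2 and 96.7 against 83.9 and 108, with no common sign. Ghitm gave 7823 and 6255 against 2165 and 2196 on one probe set and 2861 and 3102 against 1909 and 1846 on the other, the same sign at different sizes. The probe sets of Bmpr1a above the filter were all 2-fold higher in wild type at both times.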

How the data were processed

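The authors deposited 1 intensity per probe set and array; per the submitters' processing notes the method was MAS5, version and target value not stated. Their 2% trimmed means lay between 444 and 553, so each array was scaled to 509. Signals under 13.4 were raised to it and log2 was taken. Of 22690 probe sets, 20380 had 1 gene symbol and were no control, 691 had several symbols and 1619 none; 20351 matched RefSeq (GRCm38.p6) by Entrez ID. A gene was represented by its brightest probe set and kept if above 99.2 on at least 2 of 10 arrays, which left 7474 of 12393 genes.

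limma 3.58.1 in R 4.3.3 fitted 6 levels of genotype and treatment plus time over 10 arrays (3 residual degrees of freedom, prior 2.95, two-sided p, Benjamini-Hochberg adjustment, intensity trend), and again over the 4 thapsigargin arrays (1 and 4.05). The steps were tested on simulated data. No condition was repeated, so the fitted spread is the departure from a common shift between 48 and 60 h. A count of genes 2-fold apart at both times uses no model. The members and the 43 gene lists were chosen with earlier results of these data known.

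Genes were named by rule: Cd14, the 15 largest differences per direction with thapsigargin, genes 2-fold apart in all 5 pairs, up to 10 per direction that were lost or appeared with thapsigargin, and members of the lists. Other genes among the 71 and on the chromosomes were named after their values were seen. Alternatives changed the scaling, floor, filter, probe sets, time term, trend, weights and arrays.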

Additional observations from a re-analysis of the deposited data

Results flagged for a closer look

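Csrp2, a LIM domain protein, Cdkn1c and Clstn1, a membrane protein known from synapses, were 2-fold apart one way at both times with thapsigargin and lay on the other side at both times with LPS alone. The difference with thapsigargin minus that with LPS alone was -2.44 log2 units for Csrp2, -2.28 for Cdkn1c and 2.1 for Clstn1. The limma test of that difference over 10 arrays did not pass for any of the 3 (adjusted p = 0.166, 0.192 and 0.295). Csrp2 gave 568 and 339 in wild type against 1503 and 961 in CD14-deficient cells with thapsigargin, and 389 and 275 against 283 and 95.9 with LPS alone. Clstn1 gave 170.1 and 317 against 78.0 and 133 with thapsigargin, and 81.5 and 125 against 245 and 148 with LPS alone. Its second probe set, dimmer than the filter, was higher in wild type at both times. No group held enough arrays to look for a single array far from the others.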

How the results depend on the processing

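Under 23 alternatives 0 of the 53 named genes followed here reversed where they had a value, which 36 did with the strict filter, 46 with the filter on the thapsigargin arrays, 52 without scaling and 53 otherwise. These genes were 2-fold apart the same way at both times on these same arrays, so a reversal was hardly possible and its absence is no support. With every probe set each was still read on its main one, so the opposed probe sets of Adi1 did not count. The number of genes that limma called with thapsigargin depended on which arrays set the error. Genes higher in wild type, 2 with 10 arrays, numbered 482 with array weights, 243 in the 4 arrays alone, 32 without both CD14-deficient LPS arrays, 4 without the intensity trend and 1 without the filter; for the 4 arrays they numbered 315 after quantile normalization, 180 without scaling and 4 without the trend, these 3 chosen after seeing the data. Genes lower, 0 with 10 arrays, numbered 326, 183 and 16 under the first 3 of these, and 240, 229 and 1 under the last 3. Leaving out 1 stimulated array at a time gave 1 to 34 higher and 0 to 22 lower; the counts above 2 and 0 came from leaving out a CD14-deficient LPS array. Without the wild-type 48 h, wild-type 60 h or CD14-deficient 60 h with thapsigargin, Erdr1 was not called (adjusted p = 0.183, 0.205 and 0.068). The difference of differences called 0 genes, 5 without the filter and 2 without the trend, and 0 to 1899 when 1 array was left out. Genes 2-fold higher at both times, 41, numbered 125 at 48 h alone and 64 at 60 h alone; those 2-fold lower, 30, numbered 81 and 67, 46 with every probe set and 19 with the strict filter. The 39 kept genes became 59 with every probe set. Unstimulated cells had 99 genes 2-fold apart, 168 with every probe set and 347 without the filter. The labels give no replicate numbers, and arrays were paired by time through the time term. Signals near the floor do not separate low levels from background.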
